A study of Mus musculus with 6 samples.

Results

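The mitochondrially encoded genes are the 37 genes of mouse mitochondrial DNA (mtDNA), chosen here as every gene of the deposited table whose symbol starts with mt-, out of 41214 genes in all. They comprise 13 protein-coding genes, 2 rRNA genes and 22 tRNA genes. The cells were mouse mammary tumor explant cells in culture, derived from the NMuMG mammary epithelial line and expressing Neu-NT, an activated ErbB2 receptor, in both groups. The shCdGAP group (genotype Neu-NT shCdGAP, 3 libraries) carried a short hairpin RNA against CdGAP, the product of Arhgap31, which switches off the small GTPases Cdc42 and Rac1, and the shCON group (genotype Neu-NT shCON, 3 libraries) carried a control hairpin. Both groups were grown with insulin and G418. The cell type label has the same wording, with shCTL in it, for all 6 samples, and the genotype label separates the groups. Nothing in the labels tells if replicate libraries were separate cultures or clones, so p-values measure no more than how far these libraries spread, possibly for technical reasons.

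The mtDNA is a small circular genome kept in many copies per cell. It is transcribed from both strands into long precursor RNAs, which are cut at the tRNAs that punctuate them into mRNAs, rRNAs and tRNAs. Its proteins are core subunits of respiratory chain complexes I, III and IV and of the ATP synthase (complex V), while the protein factors that copy, transcribe, process and translate it are encoded in the nucleus. On the reference, 28 of the genes lie on the plus strand and 9 on the minus strand. The minus-strand genes, which are read from the light-strand promoter, are mt-Nd6 and 8 tRNA genes.

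Total reads assigned to genes ranged from 19176540 to 26824249 per library. Arhgap31 stood at 0.149, 0.826 and 0.748 FPKM (fragments per kilobase of gene scaled for depth, as deposited) in shCdGAP replicates 1, 2 and 3, against 1.19, 1.30 and 1.35 FPKM in shCON, with every shCdGAP library below every shCON library. Its log2 fold change of -0.56 missed the threshold (adjusted p = 0.0836, limma). It was taken on log2(FPKM + 1), a scale that understates changes of genes as low as this. Replicate 1 of shCdGAP stood apart, correlating across genes at 0.948 and 0.938 with the other shCdGAP libraries, against 0.996 between those. Genes in such a correlation are not independent. Of the mammary epithelial markers, the keratins Krt8 and Krt18 stood at 1491 FPKM or more in every library, whereas Krt14 was at 0.0414 FPKM or less. Of 6 tested markers of that list 1 was higher and 2 were lower, against backgrounds of 9.92% and 11.1% of all tested genes. Cdh1, E-cadherin, stood at 184, 152 and 167 FPKM in shCdGAP and 37.9, 56.9 and 57.2 FPKM in shCON. Epcam was at 0 reads in shCdGAP against 0.517 to 0.812 FPKM in shCON, and Krt5 at 0 to 0.0208 FPKM in shCdGAP against 0.473 to 0.717 FPKM in shCON. Epcam and Krt5 passed the filter on low values (at least 10 reads in 3 libraries) only through shCON. The filter thus largely fixed the direction that their calls could take. The summed level of 7 fibroblast markers was 0.589 to 1.10 FPKM in shCdGAP and 0.808 to 0.947 FPKM in shCON, with Lum and Thy1 at 0. For 7 immune markers it was 3.01 to 9.79 FPKM in shCdGAP and 12.8 to 17.7 FPKM in shCON, mostly from Cd68, with Adgre1 at 0. Of 3 tested immune markers 1 was higher and 1 lower, against the same backgrounds. Itgam stood at 0.178 to 0.257 FPKM in shCdGAP and 0.0117 to 0.0487 FPKM in shCON, so it could pass the filter through shCdGAP. The sum was, for 5 endothelial markers 0 to 0.0295 FPKM in shCdGAP and 0.225 to 0.265 FPKM in shCON. The part of other cell types in the results was not tested.

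The mtDNA genes took a larger share of the reads in CdGAP-depleted cells. They held 3.24%, 2.51% and 2.32% of all gene-assigned reads in shCdGAP replicates 1, 2 and 3, against 1.68%, 1.69% and 1.58% in shCON. Every shCdGAP library was above every shCON library, and replicate 1 of shCdGAP was the highest. The mean shares were 2.69% ± 0.488 in shCdGAP and 1.65% ± 0.0560 in shCON (SD, n = 3 each), a ratio of 1.63, or 1.47 without shCdGAP replicate 1. An exact permutation test gave p = 0.1 (2-sided), the smallest value that 3 against 3 libraries allow. In bulk RNA, a change in the number of cells with high mtDNA expression and a change in RNA per cell cannot be told apart.

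Not all classes of mtDNA transcript took part alike. The protein-coding genes made up 97.4%, 97.3% and 97.5% of mtDNA reads in shCdGAP and 95.9%, 95.8% and 95.8% in shCON. The 2 rRNAs made up 2.54%, 2.64% and 2.49% of mtDNA reads in shCdGAP, against 4.02%, 4.11% and 4.18% in shCON, so the groups did not overlap (ratio of means 0.623, exact permutation p = 0.1, 2-sided). This share also moves with the mRNAs, so by itself it does not show a fall in the rRNAs. The tRNAs held a mean of 0.0482% ± 0.00682 of mtDNA reads in shCdGAP and 0.0483% ± 0.00838 in shCON (SD, n = 3 each), with overlapping groups and a difference of -4.24e-05 percentage points (exact permutation p = 1, 2-sided). The summed level of 11 listed nuclear RNAs that usually lack a poly(A) tail was 22.7 to 62.6 FPKM in shCdGAP, highest in replicate 1, and 18.7 to 29.8 FPKM in shCON. In limma's test 0 of the 5 tested passed the threshold, and 0 had an unadjusted p under 0.05. The part of RNA selection in these shares was not tested.

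**Figure D1:**
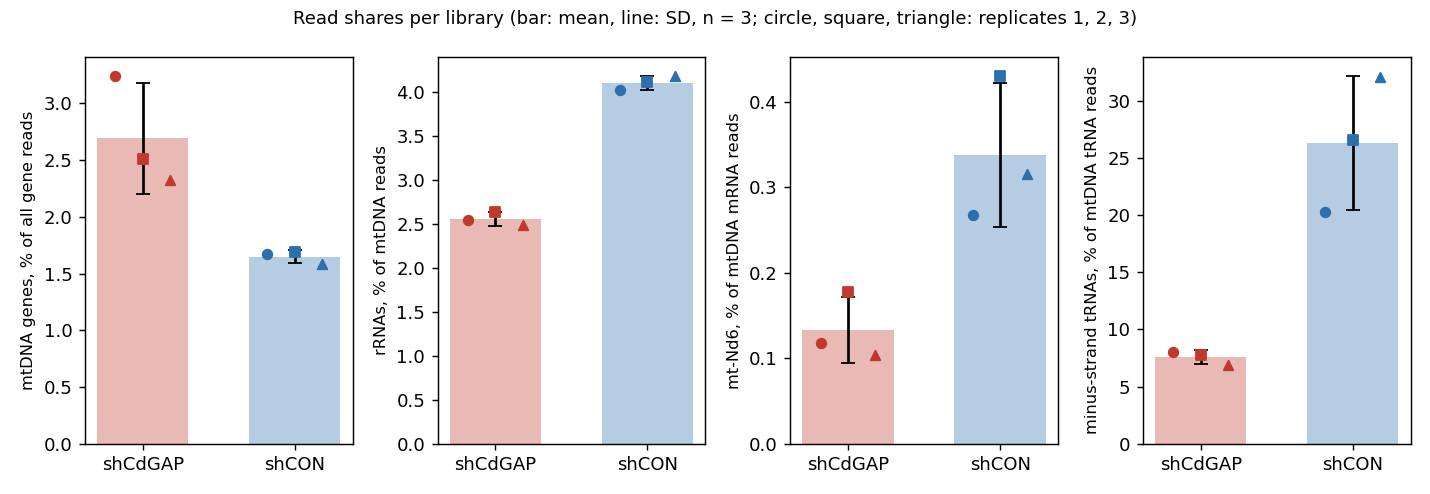
Read shares in each library. From left to right, the panels show all mtDNA genes as a percentage of gene-assigned reads, rRNAs as a percentage of mtDNA reads, mt-Nd6 as a percentage of mtDNA mRNA reads, and minus-strand tRNAs as a percentage of mtDNA tRNA reads (bars, means; lines, SD over 3 libraries; symbols, replicates). The shCdGAP libraries are above all shCON libraries in the first panel and below them in the other panels. Shares within mtDNA reads also move with the plus-strand mRNAs or tRNAs that make up most of those reads.

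Of the 37 members, 17 passed the filter on low values (3 or more libraries with at least 10 reads at the median depth), namely 11 protein-coding genes, both rRNAs and 4 tRNAs. In limma's test on log2(FPKM + 1), adjusted over all 13483 tested genes, 11 of these 17 were higher in shCdGAP and 0 were lower at an adjusted p under 0.05, against backgrounds of 9.92% of all tested genes called higher and 11.1% called lower. At an unadjusted p under 0.05, 13 were higher and 1 was lower. The share of all tested genes under that threshold is not given here, and the backgrounds for adjusted p do not apply to it. The groups did not overlap for 14 of the 17 with shCdGAP higher (background 21.8%) and for 1 with shCdGAP lower (background 22.3%). All 11 members called higher lie on the plus strand. Genes cut from a shared precursor are not independent, so these counts cannot be weighed against the backgrounds as separate genes. The authors' deposited table called 13 members higher and 0 lower (backgrounds of 11.3% and 12.5%), adding mt-Co1 and mt-Co2. Leaving out shCdGAP replicate 1 gave 13 higher and 1 lower. Leaving out shCdGAP replicate 2 gave 7 higher, shCON replicate 1 gave 6, and shCON replicate 2 or 3 gave 5. With the replicate number as a block it was 9. Calls over all 13483 tested genes also moved, from 1337 higher and 1501 lower to 2680 and 2693 without shCdGAP replicate 1. They were 469 and 768 without shCON replicate 2. The genes mt-Nd2, mt-Nd4, mt-Nd4l, mt-Nd5 and mt-Cytb passed in every fit in which they were tested. All 17 kept the sign of their fold change in every fit in which they were tested, of 15 in all.

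**Figure D2:**
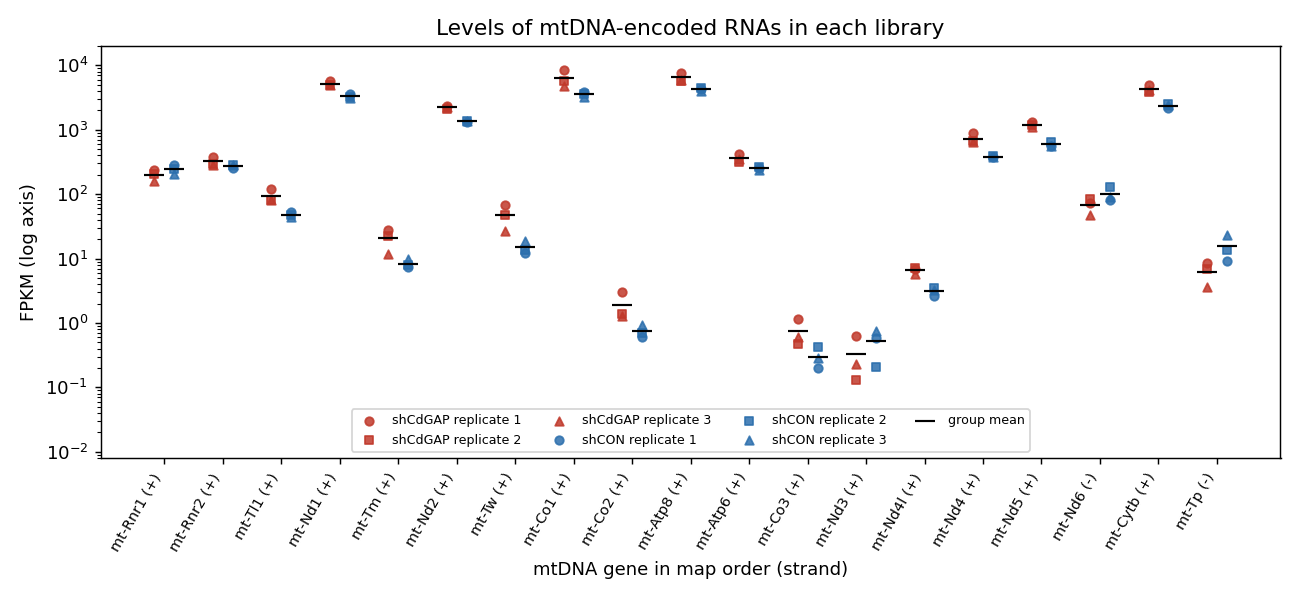
FPKM of the 17 tested members and of the untested mRNAs mt-Co3 and mt-Nd3 in each library, on a log axis, in map order with the strand in brackets (horizontal marks, group means of 3 libraries). The plus-strand mRNAs from mt-Nd1 to mt-Cytb lie higher in shCdGAP, apart from mt-Nd3, while mt-Nd6 and mt-Tp lie lower, and mt-Co2, mt-Co3 and mt-Nd3 lie near or under 3 FPKM.

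The subunits of complex I, the NADH dehydrogenase that feeds electrons into the chain, had 5 of 6 tested members higher (background 9.92%). The gene mt-Nd5 (chrM:11742-13565, plus strand; ENSMUSG00000064367), a proton-pumping subunit, stood at 1321, 1180 and 1101 FPKM in the shCdGAP libraries 1, 2 and 3, against 566, 652 and 558 FPKM in shCON. Its groups were far apart, and mt-Nd5 rose by 1.02 on the log2 scale (SE 0.12, adjusted p = 0.00271, limma). The gene mt-Nd2 (chrM:3914-4951) stood at 2313, 2118 and 2274 FPKM in shCdGAP, against 1317, 1360 and 1361 FPKM in shCON. Libraries of a group lay close together here, and mt-Nd2 rose by 0.73 on the log2 scale (SE 0.090, adjusted p = 0.0033, limma). The gene mt-Nd1 (chrM:2751-3707), the first mRNA after the rRNAs on the plus strand, stood at 5649, 4938 and 4942 FPKM in shCdGAP and 3645, 3246 and 3156 FPKM in shCON. It rose by 0.63 (SE 0.11, adjusted p = 0.0119, limma), but missed the threshold without shCON replicate 2 (adjusted p = 0.0656) or 3 (0.0671).

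The genes mt-Nd4 and mt-Nd4l, which lie together and overlap by 7 bases (chrM:10167-11544 and chrM:9877-10173), rose by 0.92 (SE 0.15) and 0.88 (SE 0.13) on the log2 scale, with adjusted p = 0.00839 and 0.00686 (limma). The level of mt-Nd4 was 882, 663 and 636 FPKM in shCdGAP and 374, 390 and 377 FPKM in shCON. The gene mt-Nd4l had 47, 46 and 43 reads in shCdGAP (6.92, 7.06 and 5.83 FPKM), against 15, 29 and 26 reads in shCON (2.61, 3.55 and 3.27 FPKM). The groups were separate for both genes, at very different FPKM from assigned reads. The gene mt-Nd3 (chrM:9459-9806) was covered by 1 to 7 reads per library and was not tested.

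The gene mt-Cytb (chrM:14145-15288), cytochrome b, the mtDNA-encoded subunit of complex III, stood at 4923, 3908 and 4126 FPKM in shCdGAP, against 2176, 2498 and 2390 FPKM in shCON. It rose by 0.87 on the log2 scale (SE 0.13, adjusted p = 0.00592, limma). Of the complex IV genes, mt-Co1 (chrM:5328-6872), the catalytic subunit of cytochrome c oxidase, stood at 8443, 5625 and 4784 FPKM in shCdGAP and 3863, 3560 and 3230 FPKM in shCON. The groups did not overlap, but the shCdGAP libraries spread widely and replicate 1 was far above the others, so the log2 fold change of 0.78 (SE 0.22) narrowly missed the threshold (adjusted p = 0.0542, limma). It passed without shCdGAP replicate 1 (0.55, adjusted p = 0.0156) or replicate 3 (adjusted p = 0.0405), without both libraries numbered 1 (adjusted p = 0.0052), when blocked on replicate number (adjusted p = 0.0334), with limma-voom on reads (adjusted p = 0.0491) and in the authors' deposited table (log2 fold change 0.80, adjusted p = 0.0091). The second subunit gene mt-Co2 (chrM:7013-7696) had 48, 21 and 22 reads in shCdGAP and 8, 13 and 17 in shCON, and its difference of 0.70 (SE 0.24) did not pass (adjusted p = 0.0892, limma). It passed once shCdGAP replicate 1 was left out (adjusted p = 0.0165) or both libraries numbered 1 were (0.0178). The gene mt-Co3 (chrM:8607-9390) had 21, 8 and 12 reads in shCdGAP and 3, 9 and 6 in shCON and was not tested.

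Both mtDNA-encoded subunits of the ATP synthase rose. The gene mt-Atp8 (chrM:7766-7969), which overlaps mt-Atp6 (chrM:7927-8607) by 43 bases, had the highest FPKM of the table by the mean over all 6 libraries, ahead of mt-Co1 and mt-Nd1, although mt-Co1 was above it in shCdGAP replicate 1. Its level was 7680, 5787 and 6009 FPKM in shCdGAP, against 4299, 4435 and 4033 FPKM in shCON (log2 fold change 0.60, SE 0.14, adjusted p = 0.0282, limma). For mt-Atp6 the level was 415, 313 and 348 FPKM in shCdGAP and 255, 261 and 237 FPKM in shCON (0.51, SE 0.13, adjusted p = 0.0403, limma). The groups were separate for both. Blocking on replicate number ended the call on mt-Atp6 (adjusted p = 0.062), and both calls were lost whenever a library other than shCdGAP replicate 1 was left out (adjusted p of 0.0505 to 0.118 for mt-Atp8 and 0.0519 to 0.155 for mt-Atp6).

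The minus-strand mRNA had a negative difference, unlike its plus-strand neighbours, and did not pass the test. The gene mt-Nd6 (chrM:13552-14070, minus strand), a complex I subunit, had 864, 958 and 611 reads in shCdGAP (72.8, 84.1 and 47.4 FPKM), against 824, 1867 and 1242 reads in shCON (82.2, 131 and 89.4 FPKM). The groups overlapped, since shCdGAP replicate 2 lay above shCON replicate 1, and mt-Nd6 differed by -0.57 on the log2 scale (SE 0.27, adjusted p = 0.196, limma; 0.0655 to 0.470 over the alternatives). Measured within each library against mt-Nd5, the gene that meets it end to end, the groups did separate, as they did for mt-Nd5 alone. The ratio of mt-Nd5 to mt-Nd6, in FPKM, was 18.1, 14.03 and 23.2 in shCdGAP and 6.88, 4.98 and 6.24 in shCON (ratio of means 3.06, exact permutation p = 0.1, 2-sided). The share of mt-Nd6 in mtDNA mRNA reads was 0.118%, 0.177% and 0.104% in shCdGAP, against 0.267%, 0.431% and 0.315% in shCON. This ratio and share were chosen after the values were seen. Both also move with the plus-strand mRNAs, so neither shows by itself a change in mt-Nd6.

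The ends of both genes are shown because they overlap on opposite strands, where reads counted without strand cannot be told apart. The sequences are those of the GENCODE M21 transcripts on GRCm38, 5′ to 3′, for the last 80 bases of mt-Nd5 (chrM:13486-13565, plus strand) and of mt-Nd6 (chrM:13552-13631, minus strand), with the 14 bases that they share on opposite strands in capitals.
mt-Nd5: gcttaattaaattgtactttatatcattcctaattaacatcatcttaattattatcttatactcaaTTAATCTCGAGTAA
mt-Nd6: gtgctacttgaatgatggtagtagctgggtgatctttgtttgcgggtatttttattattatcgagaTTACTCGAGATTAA
The strands also differ in base composition. The mt-Nd6 mRNA holds 28.1% G and 5.97% C, whereas the 12 plus-strand mRNAs hold 5.88% to 16.1% G and 22.1% to 29.97% C. The sources used here do not say whether the counting used strand, so reads from the antisense side of mt-Nd6 may be included in its value, and their part was not tested.

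**Figure D3:**
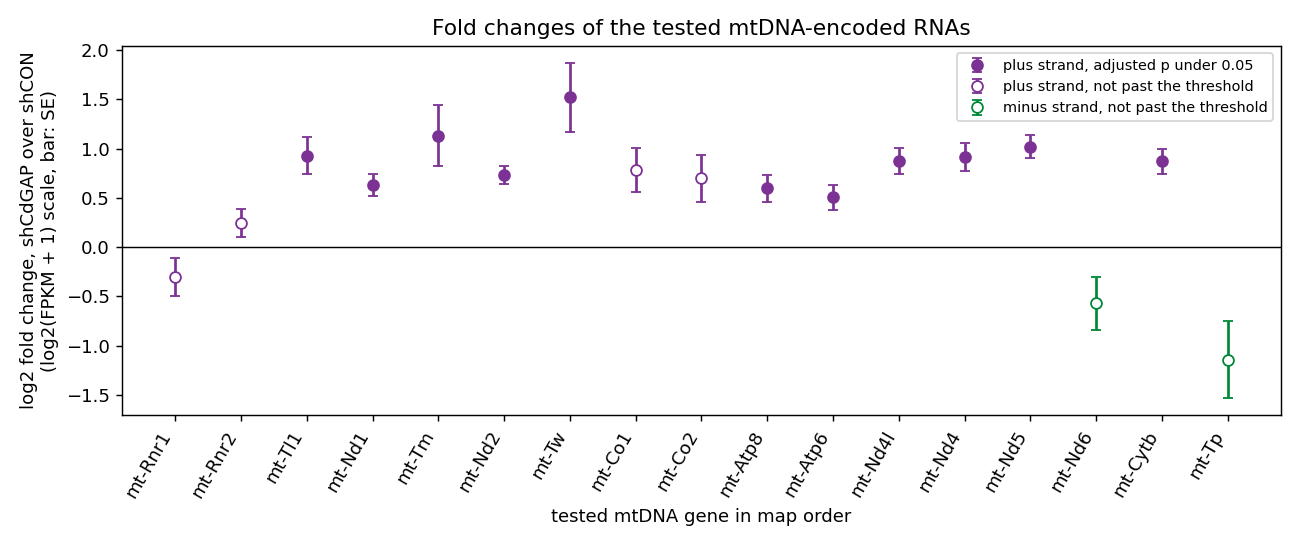
Log2 fold changes, shCdGAP over shCON, of the 17 tested members in map order with their standard errors (filled, adjusted p under 0.05 in limma's test; open, not past it). The plus-strand mRNAs and tRNAs lie between 0.51 and 1.52, mt-Rnr1 and mt-Rnr2 lie at -0.30 and 0.24, and the minus-strand genes mt-Nd6 and mt-Tp lie at -0.57 and -1.14.

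Neither mitochondrial rRNA passed the test in any of the 15 fits. The small-subunit rRNA mt-Rnr1 (chrM:70-1024) stood at 238, 203 and 159 FPKM in shCdGAP and 285, 245 and 206 FPKM in shCON, with overlapping groups (log2 fold change -0.30, SE 0.19, adjusted p = 0.323, limma). The large-subunit rRNA mt-Rnr2 (chrM:1094-2675) stood at 384, 299 and 284 FPKM in shCdGAP, just above 250, 279 and 281 FPKM in shCON (0.24, SE 0.14, adjusted p = 0.286, limma). These genes lie upstream of mt-Nd1 on the same strand. The ratio of mt-Nd1 to mt-Rnr2, in FPKM, was 14.7, 16.5 and 17.4 in shCdGAP and 14.6, 11.6 and 11.2 in shCON.

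Of the 22 tRNA genes, 4 passed the filter. The leucine tRNA gene mt-Tl1, which lies directly between mt-Rnr2 and mt-Nd1, had 208, 132 and 151 reads in shCdGAP (121, 80.2 and 81.0 FPKM) and 76, 98 and 89 reads in shCON (52.5, 47.5 and 44.4 FPKM). Every shCdGAP library was above every shCON library. It rose by 0.93 on the log2 scale (SE 0.19, adjusted p = 0.018, limma), a call lost without any 1 of the shCON libraries (adjusted p of 0.0540 to 0.0799). The genes mt-Tm and mt-Tw, for methionine and tryptophan, flank mt-Nd2 on either side. The gene mt-Tw had 104, 70 and 44 reads in shCdGAP and 16, 25 and 34 in shCON, and mt-Tm had 44, 34 and 20 against 10, 15 and 18. The groups were separate for both, and the log2 fold changes were 1.52 (SE 0.35, adjusted p = 0.0298) for mt-Tw and 1.13 (SE 0.31, adjusted p = 0.0494) for mt-Tm in limma's test. Blocking on replicate number ended both calls (adjusted p = 0.0723 and 0.089), and each was also lost in other fits, mt-Tw passing in 8 of 14 and mt-Tm in 5 of 14.

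Set against the neighbouring mRNA in the same library, the tRNA differences were smaller. There were 1.68, 1.27 and 1.29 mt-Tl1 reads per 1000 mt-Nd1 reads in shCdGAP, against 1.13, 1.15 and 1.10 in shCON. For mt-Tw per 1000 mt-Nd2 reads the values were 1.89, 1.45 and 0.7504 in shCdGAP and 0.606, 0.644 and 0.900 in shCON, with overlapping groups. For mt-Tm per 1000 mt-Nd2 reads they were 0.802, 0.704 and 0.341 in shCdGAP and 0.379, 0.386 and 0.476 in shCON, also overlapping. The part of uncut precursor in the reads on tRNA genes was not tested.

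The proline tRNA gene mt-Tp, on the minus strand, was the 1 tested tRNA with a negative difference. It had 13, 10 and 6 reads in shCdGAP and 12, 25 and 42 in shCON, which is 8.49, 6.80 and 3.61 FPKM in shCdGAP and 9.27, 13.6 and 23.4 FPKM in shCON. Every shCdGAP library was below every shCON library, but the difference of -1.14 on the log2 scale (SE 0.39) missed the threshold (adjusted p = 0.0953, limma). It passed once shCdGAP replicate 1 was left out (adjusted p = 0.0308) or both libraries numbered 1 were (0.0058). Its neighbour on the plus strand, the threonine tRNA gene mt-Tt, had 15, 4 and 4 reads in shCdGAP and 3, 7 and 12 in shCON and was not tested.

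The sequences of the tested tRNA genes and of mt-Tt are shown with the anticodon in capitals, 5′ to 3′ on the coding strand, from the GENCODE M21 transcripts on GRCm38. The first 3 flank the abundant plus-strand mRNAs mt-Nd1 and mt-Nd2, and the last 2 lie side by side on opposite strands (chrM:2676-2750, chrM:3845-3913, chrM:4950-5016, chrM:15356-15422 and chrM:15289-15355).
mt-Tl1: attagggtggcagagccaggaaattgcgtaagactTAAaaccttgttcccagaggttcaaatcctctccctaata
mt-Tm: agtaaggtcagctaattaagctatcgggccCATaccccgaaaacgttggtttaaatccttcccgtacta
mt-Tw: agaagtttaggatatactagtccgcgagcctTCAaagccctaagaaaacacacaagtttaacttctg
mt-Tp: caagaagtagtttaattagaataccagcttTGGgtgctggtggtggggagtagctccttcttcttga
mt-Tt: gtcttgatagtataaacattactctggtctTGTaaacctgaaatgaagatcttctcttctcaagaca

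The other 18 tRNA genes had 0 to 15 reads per library. Of these, 13 had a read in some library, and mt-Tf, mt-Tk, mt-Tg, mt-Tr and mt-Ts2 had 0 reads in all 6, which allows up to 3 reads per library by counting error. Summed over the 8 minus-strand tRNA genes there were 33, 21 and 17 reads in shCdGAP and 27, 55 and 76 in shCON, against 378, 250 and 230 in shCdGAP and 106, 152 and 161 in shCON for the 14 plus-strand ones. The minus-strand share of tRNA reads was therefore 8.03%, 7.75% and 6.88% in shCdGAP and 20.3%, 26.6% and 32.1% in shCON. The groups were well apart, with a ratio of means of 0.287 (exact permutation p = 0.1, 2-sided), for a split by strand that was chosen after the values were seen. The plus-strand reads alone already separated the groups, while the minus-strand reads overlapped. By itself the share does not show a fall in minus-strand tRNAs.

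The FPKM from assigned reads differed between protein-coding genes of the same precursor by several orders of magnitude. The 4 lowest, mt-Nd3, mt-Co3, mt-Co2 and mt-Nd4l, were among those with a near-exact nuclear copy in the annotation. Genes that overlap differed too, with shCdGAP means of 6.60 FPKM for mt-Nd4l and 727 for mt-Nd4, and 6492 for mt-Atp8 and 359 for mt-Atp6. Whether these values are levels of separate mRNAs was not tested. On chromosome 1 of mm10, 7 pseudogenes on the minus strand (chr1:24611535-24616197) carry, in the order of the mtDNA, copies of the end of mt-Co1, of mt-Co2, mt-Atp6, mt-Co3, mt-Nd3 and mt-Nd4l, and of the start of mt-Nd4. The aligned bases were identical for 6 of these 7 pairs, and differed at 1 of 483 bases between mt-Co1 and Gm29216. A second set on chromosome 2 is less alike, with 37 differences in 1545 bases between mt-Co1 and Gm13340. A stretch of mt-Co1 (chrM:6501-6620) is shown with its chromosome 1 copy in Gm29216 (chr1:24615958-24616077, minus strand) and its chromosome 2 copy in Gm13340 (chr2:22588355-22588474, minus strand), with bases that differ from mt-Co1 in capitals. It was chosen as the 120 bases with the most differences in Gm13340.
mt-Co1: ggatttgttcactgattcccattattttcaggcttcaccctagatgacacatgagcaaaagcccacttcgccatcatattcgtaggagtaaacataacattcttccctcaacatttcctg
Gm29216: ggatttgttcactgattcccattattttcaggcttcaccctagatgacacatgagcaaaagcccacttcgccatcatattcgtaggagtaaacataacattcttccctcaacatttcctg
Gm13340: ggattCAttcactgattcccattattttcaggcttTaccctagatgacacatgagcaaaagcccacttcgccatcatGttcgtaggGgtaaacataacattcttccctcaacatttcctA
A read that falls within this stretch has the same letters in mt-Co1 and Gm29216, while Gm13340 has 6 differences from them.

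To put a number on this, each mRNA was cut into all its 50-base words, and the words that also occur in an annotated nuclear transcript on either strand were counted. For mt-Co2, mt-Co3, mt-Atp6, mt-Nd4l and mt-Nd3 the share was 100%, 99.9%, 99.5%, 98.8% and 98.0%. These 5 genes ranged from 0.131 to 415 FPKM and held 1.00% of all mtDNA mRNA reads. For mt-Nd1, mt-Nd2, mt-Nd5, mt-Nd6, mt-Cytb and mt-Atp8 the share was 8.19% or less, and these 6 genes ranged from 47.4 to 7680 FPKM. In between, mt-Co1 shared 51.1% and mt-Nd4 62.2% of its words. With 100-base words the same count of genes, 5, stayed above 97%. Nuclear sequence outside annotated transcripts was not searched. In mtDNA, mt-Atp8 lies between mt-Co2 and mt-Atp6, whose copies Gm28661 and Gm10925 are neighbours on chromosome 1. A copy of mt-Atp8 between these pseudogenes would have been missed, so the share found for mt-Atp8 may be too low.

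Few reads were assigned to the nuclear copies. The 7 pseudogenes of chromosome 1 had 0 to 31 reads per library, the highest being Gm28438, the copy of mt-Nd3, and Gm13340 had 180, 98 and 114 reads in shCdGAP and 71, 105 and 77 in shCON. Reads that map to both places are often set aside when genes are counted, and no source used here gives the handling of such reads, so their part in these levels was not tested. The values of mt-Co2, mt-Co3, mt-Nd3 and mt-Nd4l rest on at most 48 reads per library. The share of mtDNA reads given above is likewise a share of the reads that were counted.

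**Figure D4:**
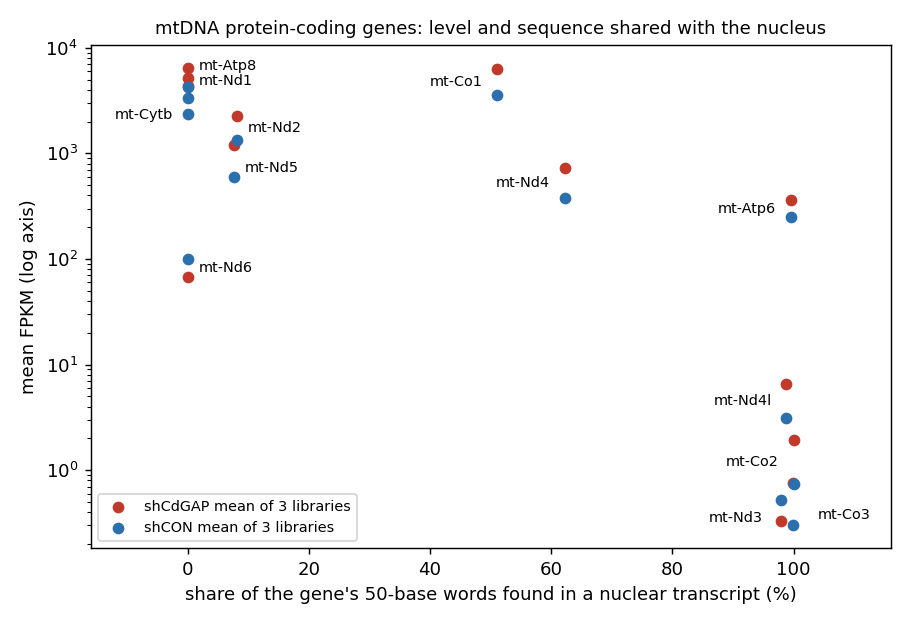
Mean FPKM of the 13 mtDNA protein-coding genes (log axis) against the percentage of each gene's 50-base words that occur in an annotated nuclear transcript, with one point for the mean of 3 shCdGAP libraries and one for the mean of 3 shCON libraries. The 5 genes at 98.0% or more reach at most 359 FPKM in a group mean and 4 of them lie under 7 FPKM. The genes at 8.19% or less lie between 68.1 and 6492 FPKM. Copies outside annotated transcripts were not searched, so the share of mt-Atp8, the highest of these genes, may be too low.

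Nuclear genes that serve the mtDNA or its products were called in both directions. Of 255 tested genes in 12 lists of mtDNA maintenance, transcription, RNA processing, translation and nuclear-encoded respiratory subunits, 18 were higher and 14 lower (7.06% and 5.49%, against backgrounds of 9.92% and 11.1%; limma). Their median log2 fold change was -0.047, against -0.010 over all tested genes and 0.73 over the 11 tested mtDNA mRNAs. These counts turned on single libraries, as did calls over all tested genes. There were 3 members called without shCON replicate 3, 4 without shCON replicate 2 and 10 without shCON replicate 1. There were 8 and 15 without shCdGAP replicates 2 and 3, 78 without shCdGAP replicate 1, and 22 when blocked on replicate number. Of all 13483 tested genes, 1337 were higher and 1501 lower in the main fit. These counts were 499 and 833 without shCON replicate 3, and 2680 and 2693 without shCdGAP replicate 1.

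Among 10 genes of mitochondrial transcription, 2 were lower and 0 higher, against 11.1% and 9.92% of all tested genes. Tfam, which packages mtDNA and bends its promoters for transcription, stood at 10.1, 12.97 and 15.4 FPKM in shCdGAP, against 20.3, 21.4 and 20.8 FPKM in shCON. The groups were separate, and Tfam fell by 0.68 on the log2 scale (SE 0.16, adjusted p = 0.0284, limma). Mterf2, of the mitochondrial termination factor family, stood at 4.30, 2.33 and 2.47 FPKM in shCdGAP and 6.75, 6.81 and 5.68 FPKM in shCON (-0.91, adjusted p = 0.0263, limma). Of 14 mtDNA maintenance genes 1 was higher, Ssbp1, the single-stranded DNA-binding protein of the mtDNA replisome, at a mean of 12.1 ± 1.03 FPKM in shCdGAP and 8.32 ± 0.820 FPKM in shCON (SD, n = 3 each). Of 9 tested biogenesis regulators 0 passed in limma's test, and 2 had an unadjusted p under 0.05, a threshold for which no background is given here. The 4 with the highest levels, Myc, Pprc1, Gabpa and Yy1, had log2 fold changes of -0.25, 0.079, -0.31 and 0.048, and Gabpa, a nuclear respiratory factor subunit, came nearest to the threshold (adjusted p = 0.0507, limma). Gabpa passed with library size scaling (adjusted p = 0.0264), scaling over nuclear genes (0.0492), limma-voom (0.0445), and without shCdGAP replicate 1 (0.0189) or both libraries numbered 1 (0.0143), within a range up to 0.187. Pprc1, a PGC-1-related coactivator, turned on shCdGAP replicate 1. It stood at 10.2, 25.3 and 29.1 FPKM in shCdGAP and 17.4, 18.6 and 19.8 FPKM in shCON, and without that library it was called higher (0.52, adjusted p = 0.00674, limma).

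The counts in this paragraph stand against 9.92% of all tested genes called higher and 11.1% lower. Of 23 genes of mitochondrial RNA processing and decay, 1 was higher and 2 were lower. Lactb2, a mitochondrial endoribonuclease, stood at 32.2, 24.2 and 21.1 FPKM in shCdGAP and 12.4, 14.1 and 12.1 FPKM in shCON (log2 fold change 0.93, adjusted p = 0.013, limma). Trmt10c, a subunit of the RNase P that cuts the 5′ ends of tRNAs from the precursor, stood at 9.40, 12.5 and 14.2 FPKM in shCdGAP, all below 18.9, 19.0 and 18.7 FPKM in shCON (-0.63, adjusted p = 0.0346, limma; 0.0538 when blocked on replicate number). Fastkd1, of a family of mitochondrial RNA-binding proteins, fell by 0.50. Of 25 listed genes of mitochondrial tRNA and rRNA modification or assembly, 1 was lower, Eral1, an assembly factor of the small mitoribosomal subunit. It stood at 9.48 ± 0.206 FPKM in shCdGAP and 12.99 ± 0.211 FPKM in shCON (SD, n = 3 each). Of 22 listed genes of mitochondrial aminoacyl-tRNA formation, Gatc, an amidotransferase subunit, and Aars2, a synthetase, rose by 0.69 and 0.57. Of 75 mitoribosomal protein genes 3 were higher, Mrpl23 among them, and 4 lower, including Mrpl39, Mrpl47 and Mrpl10. Mrpl23, Mrpl39, Mrpl47 and Mrpl10 had log2 fold changes of 0.86, -0.77, -0.76 and -0.46.

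Some of the nuclear-encoded respiratory subunits passed the test, in both directions, against backgrounds of 9.92% of all tested genes called higher and 11.1% lower. In complex I, 6 of 36 were higher and 2 lower (median log2 fold change 0.039). Ndufa7 rose the most of those named, to 64.8 ± 5.87 FPKM in shCdGAP against 34.9 ± 2.22 FPKM in shCON (SD, n = 3 each), and Ndufv2, Ndufv1 and Ndufs6 rose by 0.49, 0.42 and 0.39. In complex III, Uqcrb alone of 9 rose (0.53). In complex IV, Cox7c and Ndufa4 of 11 rose (0.42 and 0.39). In complex V, Atp5g2 of 18 rose (0.55) while Atp5d, Atp5j and Atp5o fell by 0.44, 0.40 and 0.34. Complex II has no mtDNA-encoded subunit, and Sdha of its 4 genes rose (0.67, adjusted p = 0.0111, limma). Blocking on replicate number ended the calls on Ndufv1 (adjusted p = 0.0524), Ndufs6 (0.0605), Ndufa4 (0.0706), Atp5j (0.0551) and Atp5o (0.0736). The difference between the mtDNA-encoded and nuclear-encoded subunits was not tested.

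**Figure D5:**
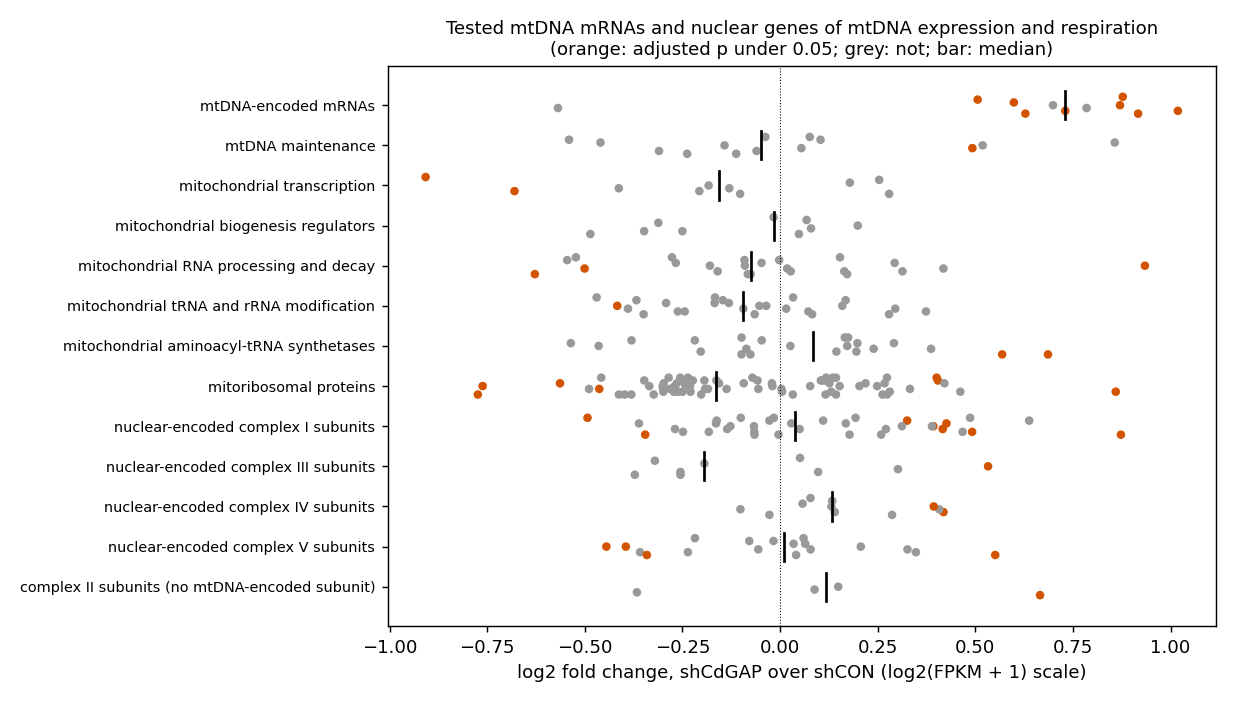
Log2 fold changes, shCdGAP over shCON, of the 11 tested mtDNA mRNAs (top row) and of the tested members of 12 nuclear gene lists (orange, adjusted p under 0.05 in limma's test; grey, not past it; bars, list medians). The mtDNA mRNAs have a median of 0.73 with mt-Nd6 alone on the negative side, while the nuclear lists have medians between -0.19 and 0.13.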

How the data were processed

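The authors deposited 1 table with an FPKM value per gene and library. Its other columns, per the file headers, are the authors' own comparison, with a mean signal for each gene (size-factor-scaled reads), the log2 fold change and SE, the test score, and raw and adjusted p-value. The submitters' processing notes name Trimmomatic, TopHat2 2.0.13, featureCounts, DESeq2 and mm10, without roles. Read length, strand use and treatment of multi-mapping reads are not stated in labels or headers. Each FPKM, times a fitted library size factor and the gene's ratio of mean signal to mean FPKM, gave whole reads for 100% of values (tolerance 1e-06).

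The test was limma 3.58.1 (R 4.3.3; trend and robust, group alone, Benjamini-Hochberg adjustment at 0.05) on log2(FPKM + 1) over 13483 genes with at least 10 scaled reads in 3 libraries and 15 reads in all. That scale understates changes of low genes. Single values per library were compared by exact permutation. Of these 16 measures were computed, and the smallest p of 0.1 became 0.16 after adjustment over them. Alternatives were the pseudocount, filters, scaling, limma-voom, left-out libraries and a replicate block. Libraries with the same replicate number deviated together (correlations over genes of 0.43, 0.39 and 0.34), a pairing seen in the data and not given in the labels. The main fit and the permutation tests took the libraries as unpaired, and only the replicate block used the pairing. The pairing rests mainly on number 1, since shCdGAP replicate 2 correlated with shCON replicate 3 at 0.35 and shCdGAP replicate 3 with shCON replicate 2 at 0.27. The fit was tested on simulated data. Members and lists were chosen with earlier results of these data known. Named were all mtDNA mRNAs and rRNAs, the tRNAs past the filter, and of each nuclear list up to 4 called members with the smallest p, or 4 of the highest level where none was called; mt-Tt was added as the neighbour of mt-Tp. Sequence work used Python 3.11.15 with Biopython 1.88.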

Additional observations from a re-analysis of the deposited data

How the results depend on the processing

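The number of mtDNA genes called higher (11) was 5 to 13 when 1 library was left out, and the number called lower (0) was 0 to 1. Without both libraries numbered 1, 13 were higher and 1 lower. The median log2 fold change of the 13 mtDNA mRNAs (0.70) was 0.55 to 0.77 with 1 library left out, 0.67 with library size scaling and 0.70 with scaling fitted on nuclear genes alone. The 32 nuclear list members called became 3 to 78 with 1 library left out and 99 without both libraries numbered 1. Calls over all 13483 tested genes moved too, from 1337 higher and 1501 lower to 3276 and 3230 without both libraries numbered 1. With sums of FPKM in place of reads, the difference in mtDNA share was 2.50 percentage points, that in rRNA share -1.18 and that in tRNA share 0.0193, since short genes then weigh more. With 1 library left out, the difference in mtDNA share (1.04 percentage points) was 0.768 to 1.23. The replicate block ended the calls on mt-Atp6, mt-Tm and mt-Tw, added that on mt-Co1, and changed no other mtDNA call. It left 22 nuclear list members called, and among those named ended the calls on Trmt10c, Ndufv1, Ndufs6, Ndufa4, Atp5j and Atp5o. Among nuclear genes that had not passed, Yy1 took a negative sign with library size scaling (-0.0088) and without shCdGAP replicate 3 (-0.015), and Pprc1 without shCdGAP replicate 2 (-0.095) or 3 (-0.19). With 1 library left out, Yy1 reached 0.094 and Pprc1 0.52 at most (both without shCdGAP replicate 1), and Pprc1 was 0.48 and called without both libraries numbered 1; the cause was not tested. Of 25 named nuclear genes that were called, 22 lost the call in some fit. The 18 untested tRNAs, mt-Co3 and mt-Nd3 had too few assigned reads to be tested.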

Other observations

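Some ratios between mtDNA genes, computed after the values were seen, belong to no comparison above. The ratio of the rRNAs mt-Rnr2 to mt-Rnr1, in FPKM, was 1.61, 1.47 and 1.79 in shCdGAP and 0.879, 1.14 and 1.37 in shCON, without overlap (ratio of means 1.44, exact permutation p = 0.1, 2-sided). The ratio of mt-Cytb, the last plus-strand mRNA, to mt-Nd1, the first, was 0.871, 0.791 and 0.835 in shCdGAP and 0.597, 0.770 and 0.757 in shCON, again without overlap (exact permutation p = 0.1, 2-sided). The makeup of the mRNA reads shifted little otherwise. Cytochrome oxidase gene mt-Co1 held 40.8%, 35.3% and 31.4% of them in shCdGAP and 37.4%, 34.9% and 33.9% in shCON, so shCdGAP replicate 1 was the highest and replicate 3 the lowest of all 6. The share of mt-Cytb was 17.6%, 18.2% and 20.0% in shCdGAP and 15.6%, 18.1% and 18.6% in shCON.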
